A study of Mus musculus with 18 samples.

Results

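Immunoglobulin heavy and light chain transcripts were described in mouse bone marrow across 4 genotypes. The members were the array probesets whose annotated gene symbols, single or several, include a heavy chain V segment or constant gene or a kappa or lambda V, J or constant gene. The rule used names and no measured value, and it left out Igll1, the surrogate light chain of precursor B cells, and Ighmbp2. It took 51 of 45101 probesets, of which 23 belonged to the heavy chain, 24 to the kappa chain and 4 to the lambda chain. They carry 26 gene symbols, all found in the RefSeq gene table, which places the heavy chain genes on chromosome 12, the kappa genes on chromosome 6 and the lambda genes on chromosome 16. A single symbol is annotated for 38 members, and the others are given by probeset ID because their signal belongs to no single gene. Another 5 probesets that carry only older names of the kappa locus fell outside the rule. Immunoglobulins D and E and the gamma subclasses other than gamma 3 have no member under this annotation and were not analysed here.

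Total RNA from flash-frozen marrow of 18 C57Bl6 mice was measured, 1 array per mouse, and all samples are titled as biological replicates. The animals were 6 CCAT2-GT mice, labelled DRAI+, 4 CCAT2-G mice and 4 CCAT2-T mice, together the 8 mice labelled DRAI-, and 4 WT mice. CCAT2-G and CCAT2-T mice overexpress CCAT2, a long non-coding RNA, from its G or its T allele in every tissue. The CCAT2-GT samples are titled as overexpressing marrow as well. The labels spell out neither DRAI nor how the CCAT2-GT mice were made, and the sources used here give no age. The series title ties CCAT2 to malignancies of myeloid cells, and the comparisons set antibody transcripts of marrow side by side between these genotypes. Mice are numbered by the replicate number in their titles.

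Antibodies pair heavy with light chains, and each chain joins a variable region, assembled from gene segments in developing B cells, to a constant region. The heavy chain constant gene sets the isotype: mu for IgM, gamma for IgG and alpha for IgA. The light chain is kappa or lambda, and kappa is the more common in the mouse. Marrow holds B-cell precursors, naive B cells with moderate amounts of immunoglobulin RNA, and long-lived plasma cells, in which immunoglobulin messages are among the most abundant. Each plasma cell clone uses its own V segments, so the amount of a given V segment can differ from animal to animal.

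Some arrays stood apart for reasons outside the labels. Interquartile ranges of log2 signal were 2.90 to 3.07 on 5 narrow arrays (CCAT2-G mouse 1, CCAT2-T mice 1 and 2, WT mice 1 and 2) and 3.15 to 3.36 on the other 13. The mean over marrow stroma and bone genes was highest in CCAT2-GT mouse 6 (7.17), WT mouse 4 (6.53) and CCAT2-GT mouse 4 (6.43). CCAT2-G mouse 2 came next at 6.20, so these 3 arrays, called stroma-rich below, were set by rank and not by a gap. CCAT2-GT mice 2, 3 and 5 and CCAT2-T mouse 3 had Xist, which is made from the inactive X, at 10.71 to 12.02, and every other mouse had it at 3.52 to 4.05. Marker genes of the main marrow lineages had a mean log2 signal of 10.8 to 11.4 on every array, which fits the labelled tissue.

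The members ranged from probesets near background to some of the brightest on the array. Mean log2 signal over the 18 mice ran from 2.32 to 13.05. Of the 51 members, 42 passed the filter on low values (a mean of at least 3.30, the 30th percentile of all probeset means): 18 of 23 heavy chain, 20 of 24 kappa and 4 of 4 lambda probesets. The 9 that did not pass comprised 3 of the 4 probesets for Ighg3, 1 of 11 for Ighm alone, 4 kappa V probesets and 1 heavy chain probeset with several symbols, 1452538_at. The brightest members, at the 99.7th to 99.9th percentile of all mean signals, were Ighm (1427351_s_at and 1427329_a_at), all 3 Igha probesets, Igkv8-30 (1452463_x_at) and the 3 probesets that include Igkc, the kappa constant gene. Signals of different probesets depend on their probes and were not compared as amounts.

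Immunoglobulin signal varied strongly between mice of the same genotype. The SD within groups had a median of 0.65 over the 42 members above the filter, against 0.24 over all 31526 probesets above it. It exceeded 0.54, the 95th percentile of all those probesets, in 27 of the 42, or 64.3%. The smallest was 0.15, for a dim Igkv9-120 probeset (1427750_at), and the largest were 1.40 for Igkv6-20 and 1.40 for the Ighm probeset 1425324_x_at. The 3 Igkc probesets were the most even of the bright members, with SDs of 0.18 to 0.25. These spreads were computed with the differences between group means removed.

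**Figure D1:**
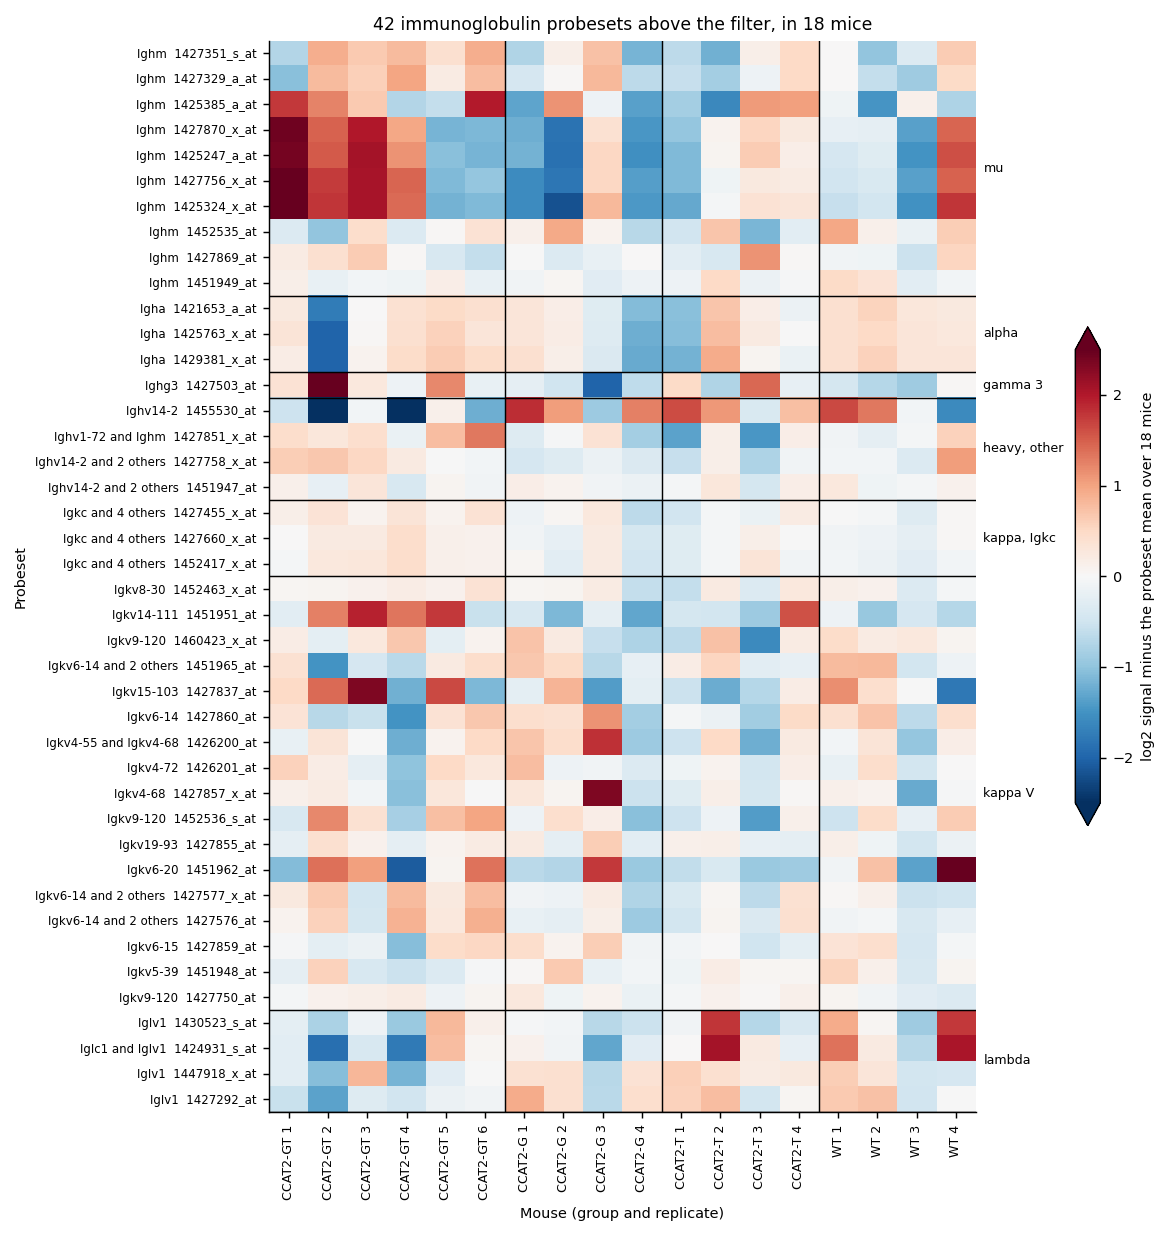
Each row is 1 of the 42 immunoglobulin probesets above the filter, sorted by class and mean signal, and each column is 1 of the 18 mice. Colour gives the log2 signal minus that probeset's mean over all mice, capped at the ends of the scale. Most of the colour changes from mouse to mouse within a genotype, as in the 3 Igha rows, which are low in CCAT2-GT mouse 2, CCAT2-G mouse 4 and CCAT2-T mouse 1.

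Between CCAT2-GT (DRAI+) and WT marrow no immunoglobulin probeset passed the test. Members called by limma at an adjusted p under 0.05 numbered 0 of 42, against 0% of the 31526 probesets tested, and the smallest adjusted p of a member was 1.00. At an unadjusted p under 0.05 there were 11 of 42 members (26.2%), 8 higher and 3 lower in CCAT2-GT mice, beside 2.48% of all probesets (1.15% higher and 1.34% lower). The 11 include all 3 Igkc probesets, which carry 1 annotation and are not separate observations. Over all 51 members 30 were higher and 21 lower, with a median log2 difference of 0.09, and the median over all probesets tested was 0.00. The classes lay on different sides. The median was 0.66 over 11 mu probesets, 0.32 over 3 with Igkc, 0.20 over 4 gamma 3 and 0.09 over 21 kappa V. It was -0.06 over the 5 other heavy chain probesets, -0.42 over 3 alpha and -0.68 over 4 lambda. At an unadjusted p under 0.05 in limma there were 0 of 10 tested mu and 0 of 3 alpha probesets. Of the mu probesets 4 ran in parallel, so their median does not rest on separate observations. With arrays left out the groups are smaller, and without the narrow arrays only WT mice 3 and 4 remain in WT. Shares over all probesets are not given here for such fits. The unadjusted count changed with the arrays left out. It was 2 without the 5 narrow arrays, 3 without the Xist-high arrays, and 3 to 13 with 1 mouse left out at a time, with 3 when CCAT2-GT mouse 4, 4 when CCAT2-GT mouse 2, 6 when WT mouse 2 or 3, and 7 when CCAT2-GT mouse 6 or WT mouse 1 was left out. With array weights, limma called 2 of 42 members, beside 1.01% of all probesets: Igkv14-111 (1451951_at) by 1.87 and Iglv1 (1427292_at) by -0.995. In that fit the WT arrays of highest weight were the narrow ones, WT mice 1 and 2.

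Between DRAI+ and DRAI- mice the members also stayed above the threshold. Called members numbered 0 of 42, against 0.00634% of all probesets tested (2 probesets), and the smallest adjusted p of a member was 0.448. At an unadjusted p under 0.05 there were 16 of 42 members (38.1%), 14 higher and 2 lower in DRAI+ mice, beside 9.99% of all probesets (4.76% higher and 5.23% lower). Of all 51 members 35 were higher and 16 lower, with a median of 0.10. The 16 comprised 5 of the 10 tested mu probesets, the Ighg3 probeset and 3 of 4 other heavy chain probesets. The rest were all 3 with Igkc, 3 of 17 kappa V and 1 of 4 lambda. Probesets of 1 gene can run in parallel, as 4 of the 5 mu probesets did, so the 16 are not separate observations. The count was 5 without the narrow arrays and 9 without the Xist-high arrays. These fits have smaller groups, and their shares over all probesets are not given here. With array weights 4 of 42 were called, beside 2.6% of all probesets, and these were Igkv14-111, both 1427660_x_at and 1452417_x_at of the Igkc class, and Iglv1 on 1427292_at. Both comparisons use the same 6 CCAT2-GT mice, so their values are not independent of each other.

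**Figure D2:**
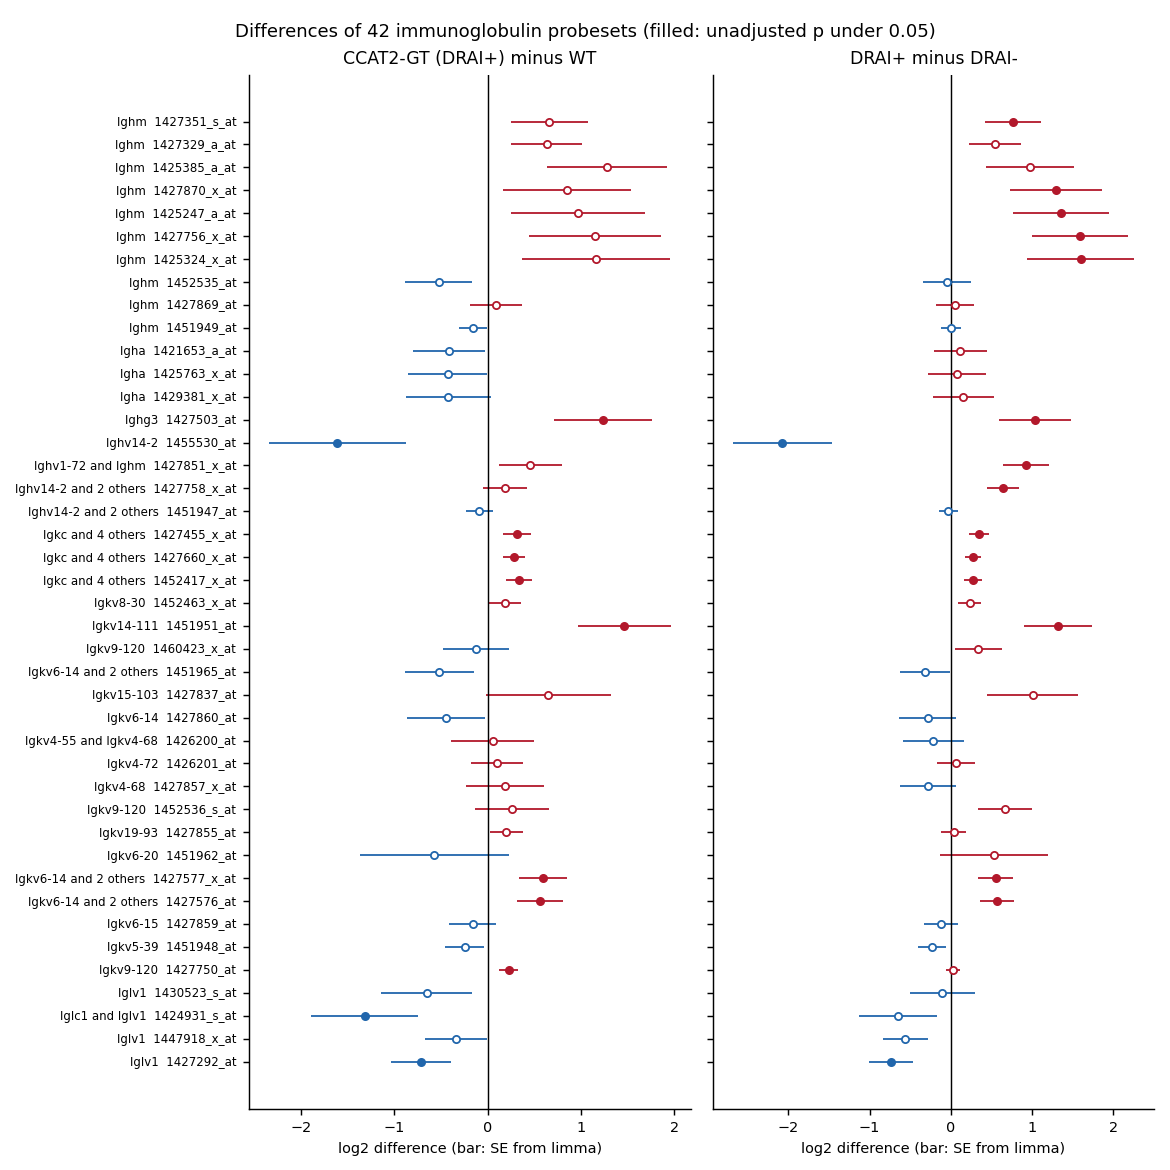
Log2 differences of the 42 probesets above the filter, CCAT2-GT (DRAI+) minus WT on the left and DRAI+ minus DRAI- on the right, with the SE from limma as bars. Filled points have an unadjusted p under 0.05, and none passed after adjustment over 31526 probesets. Mu and Igkc probesets lie mostly to the right of 0 and all 4 lambda probesets to the left, with Ighv14-2 farthest left in both panels.

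IgM heavy chain probesets fell into separate patterns across mice. Ighm encodes the constant region of the first isotype a B cell makes, as a membrane receptor and, in plasma cells, as secreted IgM. The brightest probeset, 1427351_s_at, stood at 12.32, 13.95, 13.70, 13.84, 13.45 and 13.94 in CCAT2-GT mice 1 to 6. It was at 12.30, 13.20, 13.78 and 11.88 in CCAT2-G mice, at 12.39, 11.84, 13.19 and 13.54 in CCAT2-T mice and at 13.05, 12.06, 12.71 and 13.69 in WT mice 1 to 4. All CCAT2-GT mice but mouse 1 were at or above 13.45, a level that CCAT2-G mouse 3, CCAT2-T mouse 4 and WT mouse 4 also reached, so the groups overlap. The log2 difference was 0.66 (SE 0.41) from WT, with 5 of 6 CCAT2-GT mice above the WT mean, and 0.77 (SE 0.34) from DRAI- mice (limma, adjusted p = 0.488). Without the narrow arrays these differences were 0.34 and 0.37. The second bright probeset, 1427329_a_at, followed it across mice (r = 0.93 over 18 mice, a description) and averaged 12.50 ± 0.74 (SD, n = 6) in CCAT2-GT and 11.86 ± 0.61 (SD, n = 4) in WT mice.

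A block of 4 other Ighm probesets (1427870_x_at, 1425247_a_at, 1427756_x_at and 1425324_x_at) ran in parallel, with pairwise r of 0.989 to 0.997 over the 18 mice, and followed 1427351_s_at far less closely (r = 0.31 to 0.37). In CCAT2-GT mice 1 to 6, 1425247_a_at read 10.79, 9.93, 10.48, 9.52, 7.36 and 7.24. It read 7.22, 6.53, 8.92 and 6.87 in CCAT2-G mice, 7.29, 8.47, 9.04 and 8.57 in CCAT2-T mice and 7.98, 8.10, 6.91 and 10.02 in WT mice. CCAT2-GT mice 1 to 4 and WT mouse 4 were thus high, while CCAT2-GT mice 5 and 6 sat with the low mice of the other groups. The difference was 0.97 (SE 0.71) from WT and 1.36 (SE 0.60) from DRAI- mice (limma, adjusted p = 0.485), and the other probesets of the block differed from DRAI- by 1.29 to 1.60. The difference from WT was 1.55 without WT mouse 4 and 0.52 without WT mouse 3. Without the 3 stroma-rich arrays it was 1.97 from WT and 1.77 from DRAI- mice. The annotation gives Ighm for all of them and does not say which part of a rearranged transcript each probeset reads.

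Yet another course was taken by 1425385_a_at, also annotated to Ighm alone. It was highest in CCAT2-GT mice 6 and 1 at 11.92 and 11.70, with a CCAT2-GT median of 10.89, and reached 11.06 in CCAT2-G mouse 2, 11.00 in CCAT2-T mouse 3 and 10.06 in WT mouse 3. The difference was 1.28 (SE 0.64) from WT and 0.97 (SE 0.54) from DRAI- mice, and 1.04 and 0.26 without the narrow arrays. The remaining tested Ighm probesets differed from WT by -0.52 (1452535_at), -0.16 (1451949_at) and 0.09 (1427869_at). Of 10 tested Ighm probesets 8 were higher in CCAT2-GT than in WT mice and 8 were higher in DRAI+ than in DRAI- mice. The block of 4 and the pair of bright probesets each ran in parallel, so these are not counts of separate observations.

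**Figure D3:**
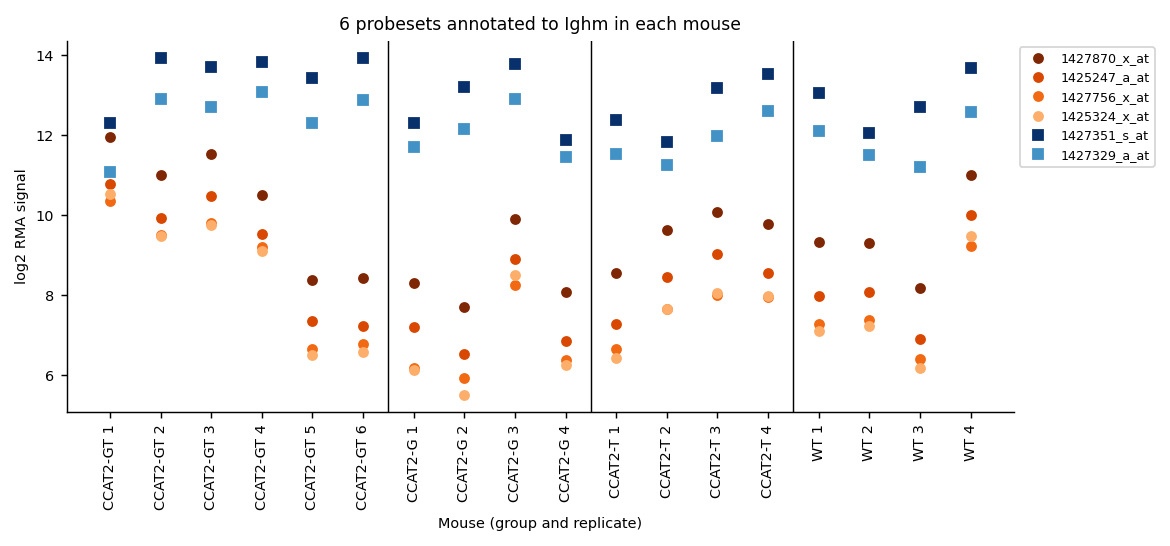
Log2 signal of 6 Ighm probesets in each mouse, with vertical lines between CCAT2-GT, CCAT2-G, CCAT2-T and WT. The 4 probesets drawn as orange circles rise and fall together and are high in CCAT2-GT mice 1 to 4 and WT mouse 4. The 2 drawn as blue squares are low in CCAT2-GT mouse 1 and do not share the drop in CCAT2-GT mice 5 and 6.

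IgA heavy chain signal was low in 3 mice, 1 of each CCAT2 genotype. Igha encodes the constant region of IgA, the isotype secreted at mucosal surfaces. Its brightest probeset, 1421653_a_at, read 13.02, 11.02, 12.78, 13.15, 13.25 and 13.17 in CCAT2-GT mice 1 to 6. It read 13.07, 12.93, 12.46 and 11.69 in CCAT2-G mice, 11.72, 13.45, 12.94 and 12.62 in CCAT2-T mice and 13.16, 13.33, 13.06 and 13.02 in WT mice. CCAT2-GT mouse 2, CCAT2-G mouse 4 and CCAT2-T mouse 1 were the low ones, and no WT mouse was low. The 3 Igha probesets ran in parallel (pairwise r of 0.993 to 0.996 over 18 mice). They differed by -0.43 to -0.41 between CCAT2-GT and WT and by 0.08 to 0.15 between DRAI+ and DRAI- mice. Between DRAI- and WT mice 1421653_a_at differed by -0.53 (SE 0.37). Without CCAT2-GT mouse 2 its difference between CCAT2-GT and WT was -0.07, and without the stroma-rich arrays it was -0.66. Between DRAI+ and DRAI- mice it was 0.46 without CCAT2-GT mouse 2, -0.04 without CCAT2-T mouse 1 and -0.09 without the stroma-rich arrays, so its direction depended on single mice.

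IgG3 was higher in CCAT2-GT marrow by unadjusted p alone. Ighg3 encodes the gamma 3 constant region, an IgG subclass that mice use against carbohydrate antigens. Only 1427503_at of its 4 single-symbol probesets was above the filter. It stood at 7.66, 10.19, 7.55, 7.17, 8.50 and 7.10 in CCAT2-GT mice 1 to 6. It was at 7.07, 6.79, 5.29 and 6.66 in CCAT2-G, at 7.78, 6.54, 8.73 and 7.08 in CCAT2-T and at 6.86, 6.58, 6.40 and 7.33 in WT mice. All 6 CCAT2-GT mice lay above the WT mean, and 2 of them below the highest WT mouse. The difference was 1.24 (SE 0.53) from WT, with an unadjusted p of 0.0302 in limma, and 1.04 (SE 0.44) from DRAI- mice, where the adjusted p in limma was 0.480. The highest values belonged to CCAT2-GT mouse 2, CCAT2-T mouse 3 and CCAT2-GT mouse 5, all Xist-high. Without the Xist-high arrays the differences were 0.52 and 0.52, and the part of sex in them was not tested. Without CCAT2-GT mouse 2 they were 0.80 and 0.60, and without the stroma-rich arrays 1.86 and 1.48. The other 3 probesets for Ighg3 were near background, with means of 2.55 to 2.85.

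Among heavy chain V segments, Ighv14-2 showed the most negative difference of all members. A V segment encodes most of the antigen-binding domain, and Ighv14-2 is the only heavy chain V gene with a probeset of its own here. Its probeset, 1455530_at, read 6.64, 4.61, 7.09, 3.72, 7.29 and 5.94 in CCAT2-GT mice 1 to 6. It read 9.01, 8.21, 6.26 and 8.43 in CCAT2-G mice, 8.80, 8.25, 6.78 and 7.92 in CCAT2-T mice and 8.81, 8.48, 7.10 and 5.57 in WT mice. Every CCAT2-GT mouse was below the means of WT and of DRAI-, yet the ranges overlap. The log2 difference was -1.61 (SE 0.73) from WT and -2.07 (SE 0.61) from DRAI- mice (limma, adjusted p = 0.448). Without the narrow arrays it was -0.45 and -1.61. The 5 narrow arrays read 8.25 to 9.01, among the highest values of all, and none of them is a CCAT2-GT array.

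Of the 4 heavy chain probesets with several symbols, 1427851_x_at and 1427758_x_at had positive differences. The probeset 1427851_x_at, annotated to Ighv1-72 and Ighm, averaged 6.38 ± 0.50 (SD, n = 6) in CCAT2-GT, 5.66 ± 0.51 (SD, n = 4) in CCAT2-G, 5.25 ± 0.90 (SD, n = 4) in CCAT2-T and 5.92 ± 0.36 (SD, n = 4) in WT mice. It was higher in DRAI+ than in DRAI- mice by 0.92 (SE 0.28) and kept this value, 0.92, without the narrow arrays, with an adjusted p of 0.448 in limma. The probeset 1427758_x_at, annotated to Ighv14-2, Ighg3 and Ighm, was dim, at 3.39 to 4.14 in DRAI+ and 2.69 to 3.60 in DRAI- mice, a difference of 0.65 (SE 0.20). WT mouse 4 had the highest value of all, 4.50, and the difference from WT was 0.19, or 0.61 without the stroma-rich arrays, WT mouse 4 among them. A probeset with the same 3 symbols, 1451947_at, differed by -0.09 from WT and by -0.03 from DRAI-, and 1452538_at, below the filter, by -0.06 and 0.06.

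The 3 probesets that list Igkc were higher in CCAT2-GT than in WT mice by 0.29 to 0.34, and none passed (limma, adjusted p of 1.00). Igkc encodes the constant domain of every kappa chain, and these probesets also list Igkj1 and 3 kappa V segments. The brightest, 1427455_x_at, read 13.18, 13.37, 13.12, 13.35, 13.11 and 13.39 in CCAT2-GT mice. It read 12.89, 13.08, 13.30 and 12.37 in CCAT2-G, 12.54, 12.97, 12.86 and 13.23 in CCAT2-T and 13.01, 12.98, 12.70 and 13.05 in WT mice. All CCAT2-GT values lay above all WT values, and the same held for 1452417_x_at, while 1427660_x_at overlapped by 1 mouse in each group. Members whose CCAT2-GT mice all lay above all WT mice were these 2 of 42, beside 0.346% of all probesets. The 3 probesets carry 1 annotation and are not separate evidence. Differences from DRAI- mice were 0.27 to 0.35, with adjusted p in limma of 0.455 to 0.480 against DRAI-. Without the narrow arrays the differences were 0.29 to 0.38 from WT and 0.22 to 0.27 from DRAI-, and without the Xist-high arrays 0.28 to 0.37 and 0.30 to 0.39. Against DRAI- mice 0 members were free of overlap, beside 0.105% of all probesets.

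Kappa V segments varied from mouse to mouse, each in its own pattern. Of 17 tested kappa V probesets 11 were higher and 6 lower in CCAT2-GT than in WT mice, and the same counts held for DRAI+ against DRAI-. Igkv14-111 (1451951_at) had the largest positive difference from WT among all members, 1.46 (SE 0.50), with the smallest unadjusted p of a member in limma, 0.00849. It stood at 8.23, 9.75, 10.42, 9.85, 10.28 and 7.96 in CCAT2-GT mice 1 to 6. It was at 8.11, 7.39, 8.28 and 7.20 in CCAT2-G, 8.06, 8.04, 7.59 and 10.10 in CCAT2-T and 8.38, 7.55, 8.08 and 7.80 in WT mice. CCAT2-GT mice 2 to 5 and CCAT2-T mouse 4 were high, about 2 log2 units above the rest, and CCAT2-GT mice 1 and 6 were not. The difference from DRAI- mice was 1.32 (SE 0.42, adjusted p = 0.448 in limma). It held without the narrow arrays, at 1.48 from WT and 1.18 from DRAI-, and was 0.73 and 0.44 without the Xist-high arrays, which include 3 of the 4 high CCAT2-GT mice.

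Igkv15-103 (1427837_at) was high in CCAT2-GT mice 2, 3 and 5 at 8.91, 9.83 and 9.16, with 8.00, 6.31 and 6.37 in CCAT2-GT mice 1, 4 and 6. It ran from 6.11 to 8.35 in CCAT2-G, from 6.27 to 7.69 in CCAT2-T and from 5.71 to 8.66 in WT mice. The 3 high mice are the Xist-high CCAT2-GT mice, and CCAT2-T mouse 3, also Xist-high, was at 6.79. The difference was 0.65 from WT and 1.01 from DRAI- mice, and -0.55 and -0.22 without the Xist-high arrays, a turn of direction. Without the stroma-rich arrays it was 0.95 from WT and 1.89 from DRAI-.

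Igkv6-20 (1451962_at) read 8.93 in WT mouse 4 and 7.26 in CCAT2-G mouse 3, each well above the other mice of its group, and 6.87, 6.86 and 6.54 in CCAT2-GT mice 2, 6 and 3. The lowest mouse, CCAT2-GT mouse 4, was at 3.42. Igkv4-68 (1427857_x_at) read 8.35 in CCAT2-G mouse 3, and 1426200_at, annotated to Igkv4-55 and Igkv4-68, read 8.24 in the same mouse, against at most 7.12 in any other. Igkv8-30 (1452463_x_at), the brightest kappa V probeset, was nearly flat, at 12.55 ± 0.12 (SD, n = 6) in CCAT2-GT, 12.34 ± 0.36 (SD, n = 4) in CCAT2-G, 12.30 ± 0.42 (SD, n = 4) in CCAT2-T and 12.37 ± 0.22 (SD, n = 4) in WT mice. The probesets 1427576_at and 1427577_x_at, with the same 3 symbols Igkv6-14, Igkv6-23 and Igkv8-19, were higher in CCAT2-GT than in WT mice by 0.56 (SE 0.25) and 0.60 (SE 0.26), and by 0.31 and 0.30 without the stroma-rich arrays. The remaining probeset with these symbols, 1451965_at, differed by -0.52 (SE 0.37), so probesets of 1 annotation did not point 1 way. Igkv9-120 had 3 probesets above the filter, which differed from WT by 0.26 (1452536_s_at), 0.23 (1427750_at) and -0.12 (1460423_x_at).

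All 4 lambda probesets averaged lower in CCAT2-GT mice than in WT mice and than in DRAI- mice. Iglc1 is a lambda constant gene and Iglv1 the V segment it is mostly joined to. The probeset annotated to both, 1424931_s_at, read 8.31, 6.71, 8.18, 6.81, 9.36 and 8.64 in CCAT2-GT mice 1 to 6. It read 8.69, 8.49, 7.28 and 8.29 in CCAT2-G, 8.59, 10.66, 8.81 and 8.38 in CCAT2-T and 9.94, 8.80, 7.90 and 10.63 in WT mice. CCAT2-T mouse 2 and WT mice 1 and 4 were high, CCAT2-GT mice 2 and 4 and CCAT2-G mouse 3 low. The difference was -1.32 (SE 0.58) from WT, with an unadjusted p of 0.0341 in limma, and -0.65 (SE 0.48) from DRAI- mice. Without the stroma-rich arrays these were -0.74 and -0.51, and without the narrow arrays -1.26 and -0.31. Iglv1 on 1427292_at averaged 4.70 ± 0.45 (SD, n = 6) in CCAT2-GT, 5.45 ± 0.68 (SD, n = 4) in CCAT2-G, 5.42 ± 0.56 (SD, n = 4) in CCAT2-T and 5.41 ± 0.58 (SD, n = 4) in WT mice. It was lower by 0.71 in CCAT2-GT than in WT and by 0.74 in DRAI+ than in DRAI- mice, and these differences were -0.24 and -0.41 without the narrow arrays. The Iglv1 probesets 1447918_x_at and 1430523_s_at differed from WT by -0.34 and -0.65, and the first of them by 0.11 without the narrow arrays. From DRAI- mice they differed by -0.56 (SE 0.28) and -0.10 (SE 0.40). The mean of 1430523_s_at was 9.04 in CCAT2-GT, above the 8.91 of CCAT2-G mice. All 4 lambda probesets carry the symbol Iglv1 and are not separate evidence.

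**Figure D4:**
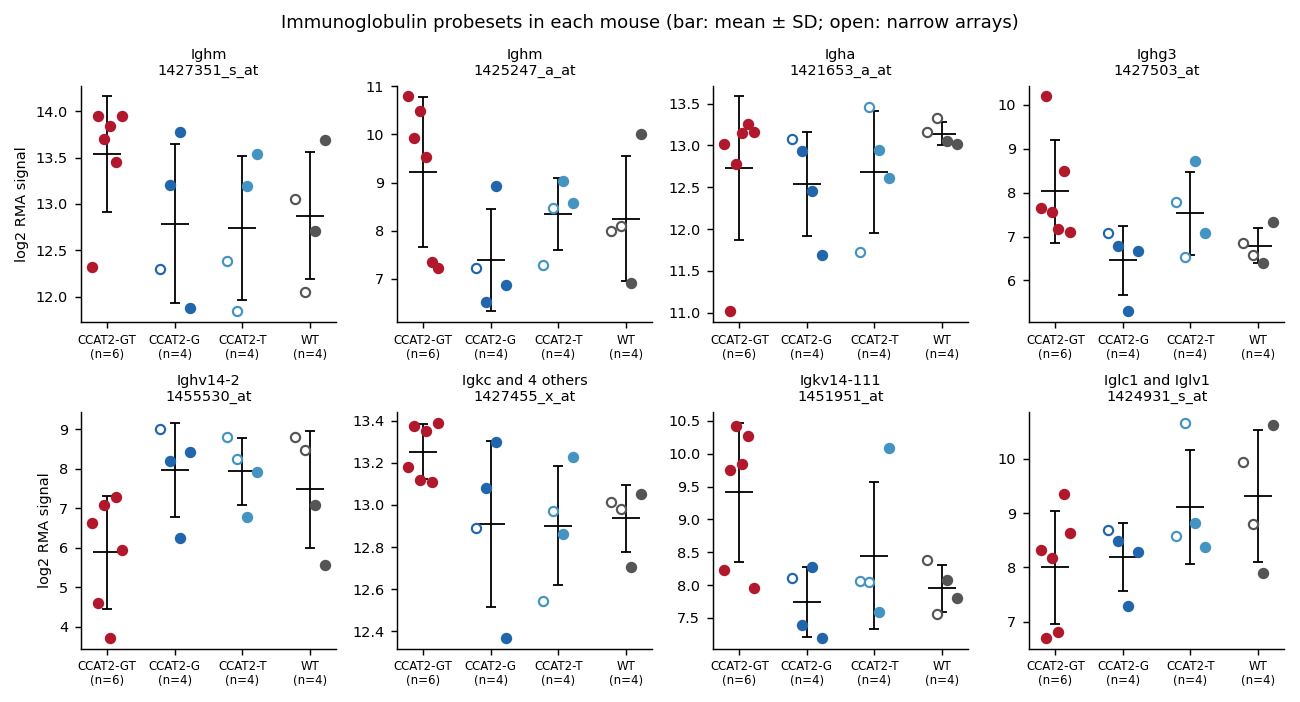
Log2 signal of 8 immunoglobulin probesets, 1 point per mouse, for CCAT2-GT (n = 6), CCAT2-G, CCAT2-T and WT (n = 4 each), with group means and SD. Open points are the 5 narrow arrays. Only the Igkc probeset has all CCAT2-GT mice, at 13.11 to 13.39, above all WT mice, at 12.70 to 13.05.

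No member passed between the DRAI- genotypes and WT or between CCAT2-G and CCAT2-T. Called members numbered 0 of 42 in DRAI-, CCAT2-G and CCAT2-T mice against WT and in CCAT2-G against CCAT2-T mice, where 0% of all probesets passed in limma. Members with an unadjusted p under 0.05 also numbered 0 in each, beside 1.53%, 1.57%, 4.16% and 6.95% of all probesets. The median over the 51 members was -0.04, -0.07, -0.03 and 0.00 in that order. With 1 mouse left out these counts were at most 4, and shares over all probesets are not given for those fits. The 4 were reached in CCAT2-G against WT without WT mouse 3 and in CCAT2-T against WT without CCAT2-T mouse 2. The largest differences came from few mice. Igkv6-20 was lower by 1.10 in DRAI- and by 1.38 in CCAT2-T than in WT mice, whose mouse 4 was at 8.93. The lambda probeset 1424931_s_at differed by -1.13 (SE 0.63) between CCAT2-G and WT mice. Ighg3 (1427503_at) differed by -1.08 (SE 0.58) between CCAT2-G mice, at 6.46 ± 0.80 (SD, n = 4), and CCAT2-T mice, at 7.53 ± 0.95 (SD, n = 4), with an adjusted p of 0.727 in limma. Igkv4-68 (1427857_x_at) was higher in CCAT2-G than in WT mice by 0.81 (SE 0.46), with CCAT2-G mouse 3 at 8.35 and the other CCAT2-G mice at 5.49 to 6.31. The dim Igkv9-120 probeset 1427750_at was higher in DRAI- than in WT mice by 0.20 (SE 0.10), and 1427758_x_at was lower by 0.46 (SE 0.22). The Ighm probeset 1452535_at differed by -0.68 (SE 0.39) between CCAT2-T and WT mice, and 1427870_x_at by -1.01 (SE 0.75) between CCAT2-G and CCAT2-T mice. The brightest Ighm and Igkc probesets differed by less than their SE in all 4 of these comparisons, and the 4 genotype means of Igkc (1427455_x_at) were 13.25 in CCAT2-GT, 12.91 in CCAT2-G, 12.90 in CCAT2-T and 12.94 in WT mice.

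Genes of mature B cells were lower in CCAT2-GT mice, and against WT the size rested on the narrow arrays. Of the mature B-cell list, 19 of 20 genes were measured and 0 passed in limma. All 19 were lower in CCAT2-GT than in WT mice, with a median of -0.97. At an unadjusted p under 0.05 in limma there were 2 of 19, beside 2.48% of all probesets. Without the narrow arrays, which leaves WT mice 3 and 4 as the only WT mice, 16 of 19 were lower and 3 higher, with a median of -0.12. Against DRAI- mice 19 of 19 were lower in DRAI+, with a median of -1.31. There 18 of 19 had an unadjusted p under 0.05 in limma, beside 9.99% of all probesets. Without the narrow arrays 19 of 19 were lower, with a median of -0.93, and 7 had an unadjusted p under 0.05. The share over all probesets is not given here for that fit, so the 7 are not read as a result about the list. Cd79a, the signalling chain that carries the B-cell receptor, averaged 5.77 ± 0.95 in the 6 CCAT2-GT mice. It averaged 8.10 ± 1.34 in the 8 DRAI- mice and 7.39 ± 1.89 in the 4 WT mice (SD), and without the narrow arrays it differed by -0.01 from WT and -1.91 from DRAI- mice. Ms4a1, the CD20 surface protein, differed by -1.58 (SE 0.67) from WT and -1.90 (SE 0.56) from DRAI- mice, against -0.44 and -1.38 without the narrow arrays. The mean over the list was 5.50 to 7.11 in CCAT2-GT, 5.91 to 8.23 in CCAT2-G, 6.89 to 7.93 in CCAT2-T and 6.11 to 8.06 in WT mice, and it was 7.80 to 8.23 on the narrow arrays. Lists and members were chosen with earlier results of these data known, so the direction of the B-cell lists is no independent evidence.

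Genes of the pre-B receptor and of V(D)J recombination were also lower in CCAT2-GT mice. All 9 measured were lower in CCAT2-GT than in WT mice (median -1.02) and in DRAI+ than in DRAI- mice (median -1.30), and 0 passed. Against DRAI- mice 6 of 9 had an unadjusted p under 0.05 in limma, beside 9.99% of all probesets. Without the narrow arrays 7 of 9 were lower than in WT (median -0.19) and 9 of 9 lower than in DRAI- mice (median -0.96). In that fit 0 had an unadjusted p under 0.05 against DRAI-, and its share over all probesets is not given here. Igll1 and Vpreb1, the surrogate light chain, differed from WT by -1.39 (SE 0.76) and -1.46 (SE 0.90), and Rag1, the recombinase, by -2.26 (SE 1.09). These were -0.56, -0.81 and -1.12 without the narrow arrays. Rag1 read 2.62 in CCAT2-GT mouse 6 and 2.57 in CCAT2-G mouse 3, below the filter level, and at least 3.55 in the other mice. The T-cell list differed from WT by a median of -0.07, with 3 of 11 genes higher and 8 lower, and by 0.25, with 10 higher and 1 lower, without the narrow arrays. Against DRAI- mice 1 of 11 was higher and 10 lower, with a median of -0.26, or -0.11 without the narrow arrays. Of the 11, 1 had an unadjusted p under 0.05 in limma, near the 9.99% of all probesets.

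Plasma cell genes lay on both sides of 0. Of 17 measured, 8 were higher and 9 lower in CCAT2-GT than in WT mice, with a median of -0.05. At an unadjusted p under 0.05 in limma 4 were higher and 0 lower, beside 1.15% and 1.34% of all probesets. Without the narrow arrays there was 1 of 17 in all, and the share over all probesets is not given here for that fit. In DRAI+ against DRAI- mice 10 were higher and 7 lower, with a median of 0.03. There 4 were higher and 3 lower at an unadjusted p under 0.05 in limma, beside 4.76% and 5.23% of all probesets. The mean over the list was 7.17 to 7.60 in CCAT2-GT and 7.21 to 7.50 in WT mice. Jchain, the chain that joins IgA and IgM into polymers, averaged 11.07 ± 0.83 in the 6 CCAT2-GT mice. It averaged 11.13 ± 0.74 in the 8 DRAI- mice and 11.62 ± 0.14 in the 4 WT mice (SD). Sdc1, the plasma cell surface marker CD138, differed by 0.12 (SE 0.24) from WT. Xbp1, the transcription factor of the secretory response, differed by 0.50 (SE 0.17). Prdm1, which drives plasma cell differentiation, differed by 0.46 (SE 0.17) and was dim, with a mean of 3.83 over all mice. Irf4 differed by -0.68 (SE 0.36), or by -0.17 without the narrow arrays. For Xbp1 and Prdm1 the difference without the narrow arrays is not given here. In the list of class switch and hypermutation genes 2 of 11 were higher and 9 lower than in WT, with a median of -0.06, Lig4, the end-joining ligase, at -0.54 (SE 0.23) and, without the narrow arrays, at -0.27. Among receptors for immunoglobulin, 8 of 9 were higher than in WT, with a median of 0.26, or 0.14 without the narrow arrays. Fcgr1 was at 0.93 (SE 0.31) and Fcgr4 at 0.57 (SE 0.21) with all arrays, both IgG receptors of myeloid cells. Fcmr, the IgM receptor of B cells, differed by -1.73 (SE 0.58) between DRAI+ and DRAI- mice. None of the genes on these lists passed the adjusted threshold.

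Across the 18 mice the bright Ighm probeset ran against Cd79a and IgA ran with Jchain. Ighm (1427351_s_at) and Cd79a gave r = -0.76 and Spearman's rho = -0.82 (permutation test, two-sided, adjusted p = 0.00204 and 3.6e-04 over 6 relations). Without the 2 mice farthest from the median of Cd79a, r was -0.71. Relations within parts of the mice, 22 in all, were not planned and took only members that had passed over all 18. They are a description and no independent support. Cd79a ran from 4.83 to 7.32 in 10 mice and from 8.31 to 9.08 in the other 8. Within the lower 10, r was -0.72 (permutation test, two-sided, adjusted p = 0.0372), and within the upper 8 it was -0.50, which did not pass (exact permutation test, two-sided, adjusted p = 0.264 over 22 relations). Within the 6 DRAI+ mice r was -0.78 and rho was -0.89 (exact permutation test, adjusted p = 0.0372 and 0.0682), and within the 12 other mice r was -0.66 and rho was -0.70 (permutation test, adjusted p = 0.0420 and 0.04997). Among the 13 arrays of wider spread r was -0.67, and it did not pass over the larger family of 84 given below (permutation test, adjusted p = 0.118). The 4 mice of lowest Cd79a, CCAT2-GT mice 2, 4 and 6 and CCAT2-G mouse 3, read 13.78 to 13.95 for this Ighm probeset. In bulk RNA, fewer cells of a type and less RNA per cell cannot be told apart.

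Igha (1421653_a_at) and Jchain gave r = 0.77 and rho = 0.61 (permutation test, two-sided, adjusted p = 0.00204 and 0.0246). Jchain ran from 9.98 to 10.16 in 4 mice and from 10.79 to 11.92 in the other 14, within which r was 0.79 and rho was 0.55 (permutation test, adjusted p = 0.00638 and 0.0805 over 22 relations). Of the 4 low mice, CCAT2-GT mouse 2, CCAT2-G mouse 4 and CCAT2-T mouse 1 were also the lowest for Igha, while CCAT2-GT mouse 4 had the lowest Jchain, 9.98, and an Igha of 13.15. Without the 2 mice farthest from the median of Jchain r was 0.94. Within the 6 DRAI+ mice r was 0.57 (exact permutation test, adjusted p = 0.272), and within the 12 others it was 0.96 (permutation test, adjusted p = 0.00110). The relation of Igha (1421653_a_at) to Cd79a (r = 0.07) and that of the bright Ighm probeset 1427351_s_at to Jchain (r = -0.04) did not pass. Ighg3 gave r = -0.23 with Cd79a and -0.18 with Jchain, neither of which passed.

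The same markers split the other members, in a family of 84 relations added after the values had been seen. With Cd79a, 9 of 42 members passed by r, 4 positive and 5 negative. The positive ones were Ighv14-2 (1455530_at, r = 0.92, rho = 0.94), Iglv1 on 1427292_at (r = 0.83) and on 1447918_x_at (r = 0.81), and 1451965_at (r = 0.66). The negative ones were both bright Ighm probesets and the 3 with Igkc (r from -0.76 to -0.63). With Jchain 6 passed, all positive: the 3 Igha probesets, 1424931_s_at, the Ighm probeset 1452535_at (r = 0.61, rho = 0.65) and 1451965_at. Without the narrow arrays, 1 of the relations with Cd79a, that of Ighv14-2 (r = 0.86), and 0 with Jchain passed by r, and 3 and 1 passed by rho. For Ighv14-2 r with Cd79a was 0.81 within the 6 DRAI+ mice (exact permutation test, adjusted p = 0.108) and 0.95 within the 12 others (permutation test, adjusted p = 0.00110). For the Igkc probeset 1427455_x_at it was -0.90 within the 6 (exact permutation test, adjusted p = 0.134) and -0.36 within the 12 (permutation test, adjusted p = 0.275). For Iglv1 on 1427292_at it was 0.33 within the 6 and 0.84 within the 12. These members were taken from those that had passed over all 18 mice, so the values within parts are no separate support. The values of 1 mouse share an array and its normalization, and the 5 narrow arrays are all among the 8 with Cd79a at 8.31 or more.

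**Figure D5:**
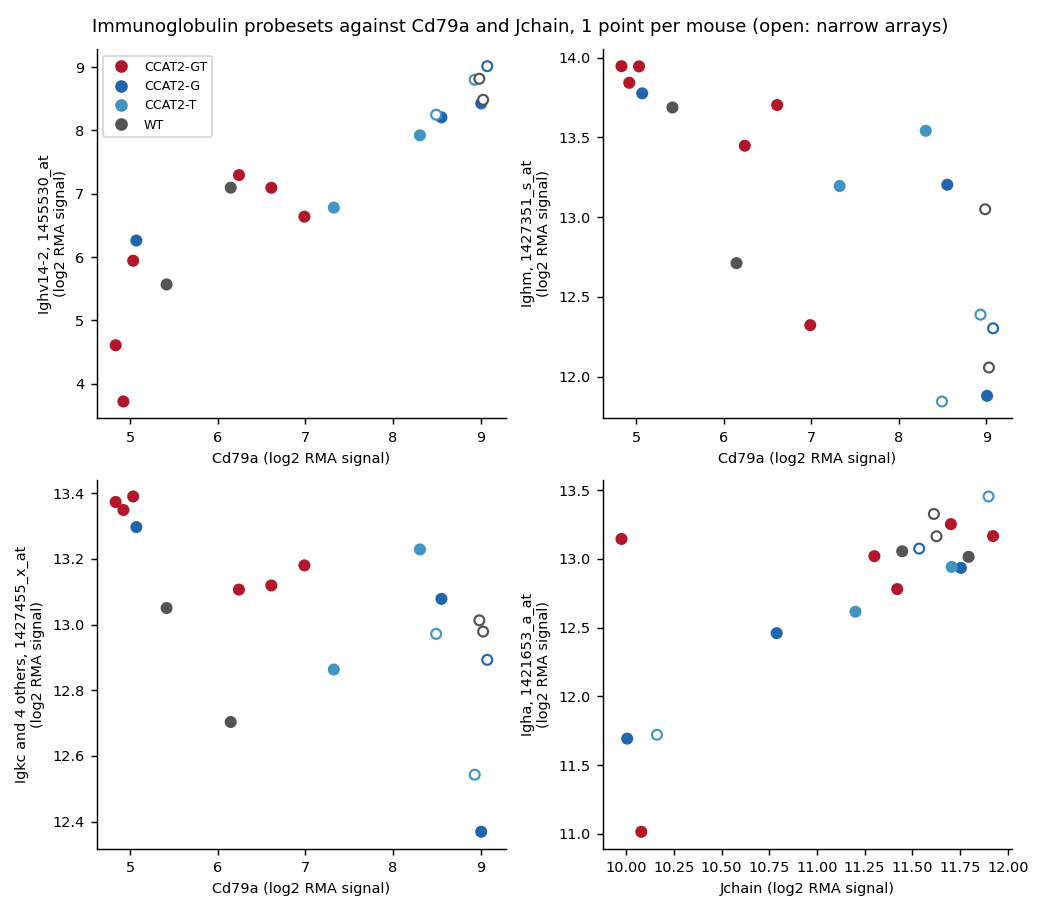
Log2 signal of 4 immunoglobulin probesets against Cd79a or Jchain, 1 point per mouse, coloured by group, with open points for the 5 narrow arrays. Ighv14-2 climbs with Cd79a (r = 0.92), Ighm and the Igkc probeset go down (r = -0.76 and -0.63), and Igha climbs with Jchain except in CCAT2-GT mouse 4 at the left of its panel.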

How the data were processed

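The authors deposited log2 expression values for 45101 probesets on 18 arrays, made with RMA per the submitters' processing notes; RMA corrects background, equalises array distributions and summarises probes. Neither its version nor the probe definitions are known from these notes. Values ran from 1.56 to 14.19. Total RNA was extracted with Trizol and labelled as biotin cRNA, per the labels' protocols. Arrays give no read depth, so their number limits the precision.

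Groups came from the labels. Probesets were named through the platform annotation, and 64 control probesets were left out. A linear model of 4 groups over all 18 arrays (limma 3.58.1, R 4.3.3; lmFit, then eBayes with a trend) was fitted on the 31526 probesets with a mean of at least 3.30, and p-values were adjusted over all of them with Benjamini and Hochberg's method, threshold 0.05. Differences are log2, first group named minus second. SD is between mice, SE from the fit. On simulated data with 200 changed probesets the fit was tested: at a log2 change of 1 it recovered 82.5% for CCAT2-GT against WT and 90.0% for DRAI+ against DRAI-. These shares are over all probesets, whose spread is smaller than that of the members, and the simulations hold no correlation between probesets.

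Same-numbered mice deviated together in all 4 pairs of CCAT2-T and WT mice (r from 0.23 to 0.51), in 9 of 12 pairs among CCAT2-G, CCAT2-T and WT (r over 0.1), and in 12 of 24 pairs overall (r from -0.31 to 0.65). The labels do not say what the numbers share. In both CCAT2-T and WT, mice 1 and 2 are narrow arrays and mice 3 and 4 are not. In these 4 pairs a shared number thus goes along with a shared array spread, and the part of each was not tested.

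Correlations used 100000 permutations, or all of them for fewer than 10 mice. Listed genes were represented by their brightest single-symbol probeset. The members and lists were chosen with earlier results of these data known. Text names every probeset of a constant gene and, of the others, the brightest per chain and those of smallest p; some of these are given by counts only. Alternatives changed the normalization, filter, variance model, array weights, arrays and probesets used.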

Additional observations from a re-analysis of the deposited data

Results flagged for a closer look

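In 9 of 168 tests of a group of 4 or 6 mice, or 5.36%, a single mouse stood far from the rest of its group, and chance flags about 1 in 20. Igha was low in CCAT2-GT mouse 2 on all 3 probesets, at 11.0 on 1421653_a_at, 10.6 on 1425763_x_at and 10.1 on 1429381_x_at, with the other CCAT2-GT mice at 12.78 to 13.25, 12.62 to 13.16 and 12.20 to 12.75. The 3 probesets follow each other, so they count as 1 observation. Iglv1 on 1427292_at was also low in that mouse, at 3.85, with the others at 4.63 to 5.10. Ighm on 1427351_s_at was low in CCAT2-GT mouse 1, at 12.3, with the others at 13.45 to 13.95. Igkv4-68 (1427857_x_at) was low in CCAT2-GT mouse 4, at 4.97, and in WT mouse 3, at 4.76. CCAT2-G mouse 3 was high for Igkv6-20 (1451962_at), at 7.26 with the others at 4.58 to 4.82, and low for Iglv1 on 1447918_x_at, at 6.66 with the others at 7.73 to 7.77.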

How the results depend on the processing

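Of the processing alternatives, only array weights changed the number of called members. With weights, limma called 2 of 42 members (4.76%) in CCAT2-GT against WT, Igkv14-111 higher and Iglv1 on 1427292_at lower, beside 1.01% of all probesets. It called 4 (9.52%) in DRAI+ against DRAI-, Igkv14-111, 1427660_x_at and 1452417_x_at higher and Iglv1 on 1427292_at lower, beside 2.6%. The weights ranged from 0.37 for WT mouse 4 to 3.76 for WT mouse 2. WT mice 1 and 2, both narrow arrays, had 2.16 and 3.76, and WT mice 3 and 4 had 0.47 and 0.37. The weighted WT level thus rested mostly on the narrow arrays. Leaving out any 1 mouse gave 0 called members in all 6 comparisons. With the replicate block 0 members were called in any of the 6 comparisons, CCAT2-T against WT included. In that fit 14 in CCAT2-GT against WT and 15 in DRAI+ against DRAI- had an unadjusted p under 0.05. Its shares over all probesets are not given here, so these counts are not read as a result about the members. Of the 16 mice with a same-numbered mouse in another group, 7 were closest to one of their own number. The median over members stayed within 0.34, the SD of the mouse medians, of its value in every setting. That margin is wider than any of the medians, so it cannot show that their sign held. The median ran from -0.01 to 0.21 in CCAT2-GT against WT and from 0.03 to 0.21 in DRAI+ against DRAI-. In DRAI- against WT it ran from -0.15 to 0.07, and in CCAT2-G against WT from -0.15 to -0.01. The ranges were -0.20 to 0.08 in CCAT2-T against WT and -0.07 to 0.07 in CCAT2-G against CCAT2-T. Among 6366 recomputed single-probeset differences 495, none of them called, changed sign.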
